A study of Drosophila melanogaster with 2 samples.

Results

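Chromatin immunoprecipitation of Bgb-eGFP from Drosophila melanogaster embryos placed 181 of the 4488 peaks of the conservative list at the start of a noncoding RNA (ncRNA) gene. A peak was taken when its summit, the base of highest signal, lay within 500 bp of the transcription start site (TSS) of a gene of biotype ncRNA in the Ensembl BDGP6 annotation. These 181 peaks were divided by a second criterion. At 127 of them a protein-coding TSS also lay within 500 bp, and they are called shared peaks. At the other 54 no coding TSS did, and they are called ncRNA-only peaks. Most of the list lay elsewhere, with 3411 peaks near a coding TSS alone and 896 near neither kind of start.

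The tissue was whole embryos aged 0 to 24 h from flies carrying a fusion of Bgb with enhanced green fluorescent protein (eGFP), in 2 biological replicates of 1 group. The labels are at odds over the antibody: the free text names GFP and the antibody entry names Bgb. There was no second genotype, treatment or stage, both replicates carry the same strain identifier, and the controls are not analysed here. This tissue mixes every cell type and every stage of embryogenesis, so a peak cannot be assigned to a cell type.

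Bgb (Big brother) is a fly homolog of CBF-beta, a protein that does not contact DNA itself but stabilises the binding of Runt domain transcription factors such as Runt and Lozenge. Long noncoding RNAs (lncRNAs) are transcribed and processed like mRNAs but are not known to be translated, and some serve as precursors of microRNAs or of small nucleolar RNAs (snoRNAs), which guide the modification of ribosomal RNA. Antisense RNAs are named for lying opposite a coding gene, and many start next to its promoter. In flies, promoters of broadly expressed coding genes often carry the sequences recognised by the boundary protein BEAF-32, by DREF, a regulator of replication genes, and by M1BP.

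The sequences around 12 summits show what lay under peaks of each kind. They are 101 bp long with the summit at the centre, are read on the strand of the ncRNA, and come from the RefSeq release of the dm6 assembly. Capitals mark words of BEAF-32 (CGATAA or CGATAG), DREF (TATCGATA), M1BP (GGTCACAC) and Runx proteins (AACCACA or AACCGCA or GACCACA or GACCGCA) on either strand, and runs such as TATCGATAG hold both a DREF and a BEAF-32 word. The first 4 are ncRNA-only peaks among the strongest outside the reach of coding starts. The next 4 lie at annotated starts of microRNA precursors. For lncRNA:iab8 this is an internal start, 1 of its 8 annotated starts, and not the 5' end of the gene. The peak at lncRNA:CR45643 is shown because it holds a Runx word at its summit, and it was picked after its values were seen. The last 3 are shared peaks at the promoters of Daxx, Hsp110 and the snoRNA host Uhg2.
asRNA:CR45009, chrX:23007610-23007710, plus strand: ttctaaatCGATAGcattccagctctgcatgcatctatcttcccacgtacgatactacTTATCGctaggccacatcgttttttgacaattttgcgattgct
asRNA:CR45806, chr3L:174665-174765, plus strand: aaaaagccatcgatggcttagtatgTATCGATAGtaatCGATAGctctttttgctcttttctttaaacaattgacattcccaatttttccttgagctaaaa
lncRNA:CR43838, chrX:20760662-20760762, minus strand: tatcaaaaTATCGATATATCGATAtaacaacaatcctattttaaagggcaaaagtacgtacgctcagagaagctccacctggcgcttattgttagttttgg
RNaseMRP:RNA, chr3R:23730331-23730431, minus strand: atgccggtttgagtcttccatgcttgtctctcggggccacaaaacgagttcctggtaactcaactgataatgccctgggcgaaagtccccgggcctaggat
lncRNA:CR43314 (host of mir-bft), chr2L:11971028-11971128, minus strand: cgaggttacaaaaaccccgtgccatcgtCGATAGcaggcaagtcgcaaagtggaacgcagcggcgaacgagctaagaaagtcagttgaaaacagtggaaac
lncRNA:CR31044 (host of mir-279 and mir-996), chr3R:29214532-29214632, plus strand: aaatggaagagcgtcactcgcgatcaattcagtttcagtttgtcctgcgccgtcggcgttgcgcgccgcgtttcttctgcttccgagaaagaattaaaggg
lncRNA:CR42651 (host of mir-10), chr3R:6816310-6816410, minus strand: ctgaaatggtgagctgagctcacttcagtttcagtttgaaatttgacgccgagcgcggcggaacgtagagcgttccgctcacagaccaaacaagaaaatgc
lncRNA:iab8 (host of mir-iab-8), chr3R:16899817-16899917, minus strand: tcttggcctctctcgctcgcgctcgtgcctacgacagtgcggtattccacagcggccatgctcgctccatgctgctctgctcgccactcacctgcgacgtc
lncRNA:CR45643, chr3R:16223343-16223443, plus strand: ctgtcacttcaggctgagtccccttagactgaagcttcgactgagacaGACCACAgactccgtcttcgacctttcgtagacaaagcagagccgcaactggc
lncRNA:CR45463 (at Daxx), chr2L:6480833-6480933, minus strand: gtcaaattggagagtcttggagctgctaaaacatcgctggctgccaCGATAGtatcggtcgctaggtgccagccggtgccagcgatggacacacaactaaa
asRNA:CR42871 (at Hsp110), chr3L:14036927-14037027, minus strand: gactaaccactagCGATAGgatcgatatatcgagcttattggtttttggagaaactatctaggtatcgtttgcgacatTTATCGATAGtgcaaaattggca
Uhg2 (at Bka), chr2L:9895044-9895144, minus strand: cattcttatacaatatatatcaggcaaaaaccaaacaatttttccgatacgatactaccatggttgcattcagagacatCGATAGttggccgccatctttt
The strongest ncRNA-only peak, at asRNA:CR45009, has 2 BEAF-32 words, and asRNA:CR45806 has a joined DREF and BEAF-32 run followed by another BEAF-32 word. The peak at lncRNA:CR43838 holds DREF words alone. The Hsp110 peak has 3 BEAF-32 words, and the Daxx peak and Uhg2 have 1 each. No word of these 4 factors was found in the windows at RNaseMRP:RNA, lncRNA:CR31044, lncRNA:CR42651 or lncRNA:iab8, which says only that those letters are not in those windows. The windows at lncRNA:CR31044 and lncRNA:CR42651 have a run of 15 bases in common, TTCAGTTTCAGTTTG. The run overlaps the annotated start of each RNA and holds TCAGT, a form of the initiator element. This pair was picked after the members had been seen, and no other pair of windows was compared.

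A peak was found at few ncRNA genes. Of 3304 ncRNA genes, 209 (6.33%) had a conservative summit within 500 bp of a TSS, against 4266 of 13986 protein-coding genes (30.5%). A gene counts when any of its transcript starts is near a summit. The coding genes have 30792 annotated transcripts and the ncRNA genes 3807, and the part of this in the difference was not tested. The biotype includes 747 microRNA entries, which are hairpins and mature microRNAs whose annotated 5' end is a processing site and not a transcription start. Without them the share was 153 of 2557 genes (5.98%). Among lncRNA genes 85 of 1954 had a summit (4.35%, exact 95% interval 3.49 to 5.35), and among antisense RNA genes 62 of 503 (12.3%, 9.58 to 15.5). Intervals given with shares are exact Clopper-Pearson intervals and cover counting error only.

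The share depended on the distance to a coding start. Leaving out microRNA entries, 101 of 473 ncRNA genes with a TSS within 500 bp of a coding TSS had a peak (21.4%, 17.7 to 25.3). Of 2084 ncRNA genes farther away, 52 did (2.50%, 1.87 to 3.26). The share was 31.1% (22.9 to 40.2) where the starts were at most 100 bp apart, 18.1% (14.2 to 22.5) at 101 to 500 bp, 5.08% (2.87 to 8.25) at 501 to 1000 bp and 1.19% (0.574 to 2.19) beyond 5000 bp. With the list of replicate 1 alone, 4.80% of all ncRNA genes far from coding starts and 28.6% of those next to one had a peak, and with that of replicate 2 alone 1.27% and 15.6%, microRNA entries included. The class of the RNA followed the same division: 18.2% of lncRNA genes next to a coding start had a peak and 2.19% of those farther away, and the values for antisense RNA genes were 26.9% and 4.05%. Seen from the coding side, shares with and without a neighbouring ncRNA start differed by less than the counting error. Of 515 coding genes with a ncRNA TSS within 500 bp, 155 had a peak (30.1%, 26.2 to 34.3), and of 13471 without one 4111 had (30.5%, 29.7 to 31.3).

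**Figure D1:**
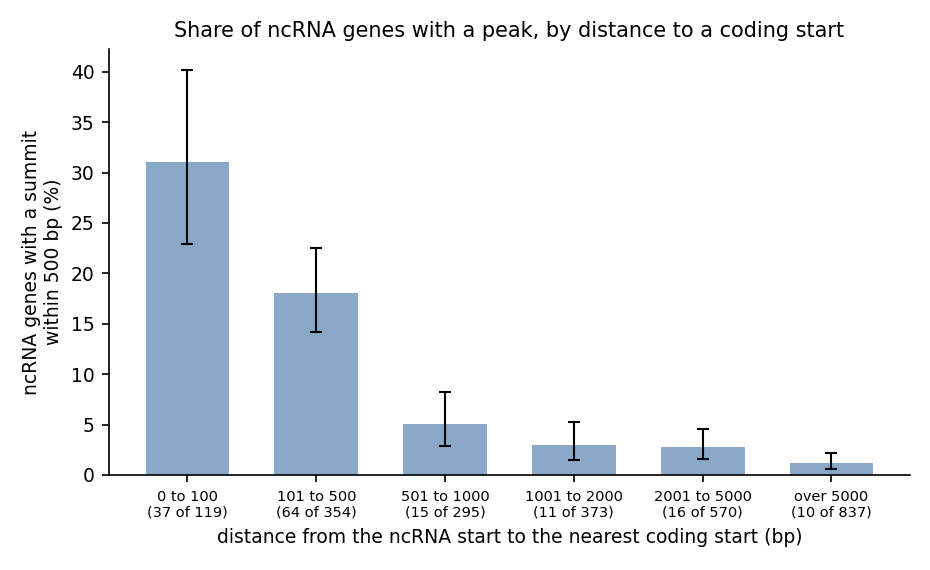
Percentage of ncRNA genes (microRNA entries left out) with a conservative summit within 500 bp of a TSS, by the distance from the ncRNA gene's start to the nearest coding start in bp. Bars are shares, lines are exact 95% intervals, and counts stand under each bar. The share goes from 31.1% at up to 100 bp to 1.19% beyond 5000 bp.

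At shared peaks the summit was usually closer to the coding start. Of the 113 shared peaks whose ncRNA is a transcript, the coding TSS was nearer at 76 (67.3%, 57.8 to 75.8), the ncRNA TSS at 32, and 5 were ties. The median distance was 54 bp to the coding TSS and 169 bp to the ncRNA TSS. Each is the distance to the nearest annotated start of that kind. Coding genes have more annotated transcripts per gene, and the part of this in the difference was not tested. Peaks with a coding TSS alone had a median distance of 45 bp. The ncRNA-only peaks with a transcript, 49 in number, lay at a median of 118 bp from the ncRNA TSS, and 24 of them were within 100 bp of it. Their nearest coding TSS was 539 to 24524 bp away, with a median of 2580 bp. Of the 54 ncRNA-only summits, 36 lay outside any coding gene, 14 within one on the strand opposite to the ncRNA and 4 within one on the same strand.

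**Figure D2:**
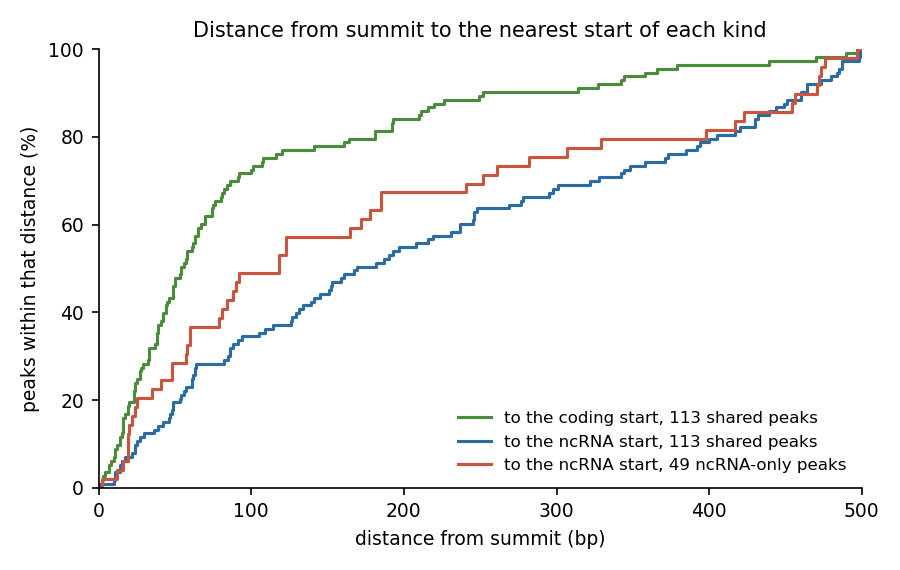
Cumulative percentage of peaks (vertical axis) within a given distance in bp (horizontal axis) of the nearest start of each kind, microRNA entries left out. At shared peaks the curve for the coding start (median 54 bp) lies above that for the ncRNA start (median 169 bp), and the curve for ncRNA-only peaks (median 118 bp) starts between them.

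The starts of a shared peak pointed away from each other at 68 of the 113 peaks (60.2%, 50.5 to 69.3), towards or across each other at 31 and the same way at 14. That order was also the order of the annotation. Among the 473 ncRNA genes with a neighbouring coding start, the closest pair of starts was divergent in 262 (55.4%), convergent in 137 and on the same strand in 74, and the shares with a peak were 19.1% (14.5 to 24.4), 24.1% (17.2 to 32.1) and 24.3% (15.1 to 35.7). These intervals overlap, so no arrangement stood apart at this number of genes.

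Peak signal is the authors' value for each peak, in units whose scaling is not given in the sources used here, and it is used to describe and rank peaks. Shared peaks had a median signal of 147 (interquartile range 91.7 to 289.8) and a highest value of 1641. The ncRNA-only peaks had a median of 123 (94.9 to 212) and a highest value of 742. Peaks with a coding TSS alone had a median of 155 (99.5 to 287). Those near neither kind of start had a median of 119 (84.2 to 183), close to that of ncRNA-only peaks. The 500 strongest peaks of the list included 26 shared peaks (20.5% of them), 5 ncRNA-only peaks (9.26%) and 13.2% of coding-only peaks. Of peaks near neither kind of start, 2.12% were among them, and of the whole list 11.1%. No intervals were computed for these shares, and the ncRNA-only share was near that of the whole list. The ratio of the median signal of ncRNA-only to coding-only peaks was 0.790, and 0.715 and 0.806 with the signals of replicates 1 and 2. The ratio for shared peaks was 0.947, and 0.897 and 0.951 in the replicates, but it lay at 1.06 when only summits within 250 bp of a start were counted, so no direction is claimed for it.

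**Figure D3:**
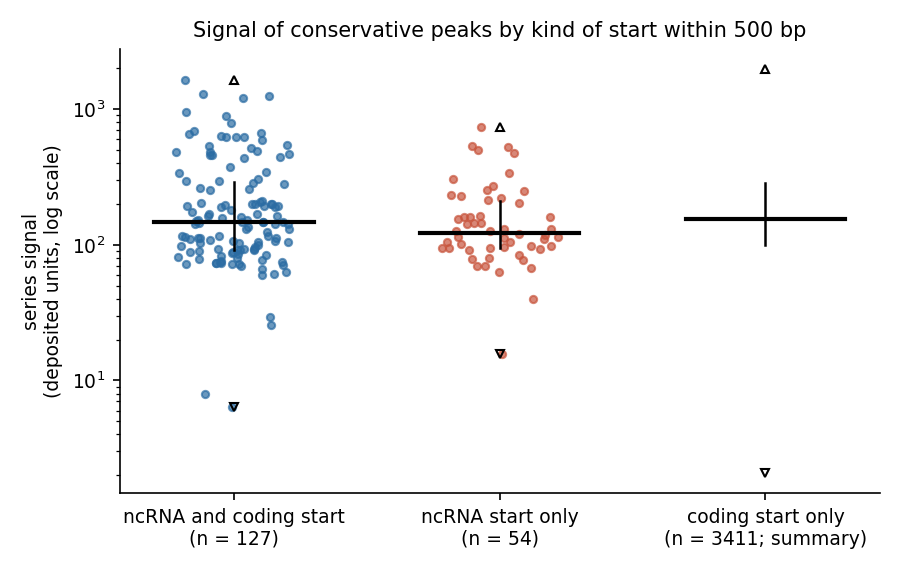
Signal in the conservative list (log scale, deposited units) for each shared and ncRNA-only peak, with the coding-only peaks given as a summary. Thick lines are medians, thin lines interquartile ranges and triangles the lowest and highest values. Medians are 147, 123 and 155, and the highest ncRNA-only peak (742) is below the highest shared peak (1641).

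The replicates did not list peaks equally often, at ncRNA starts or over the whole conservative list. The value in a replicate is the signal of the peak in its own ranked list that covers the summit. The median over shared peaks was 91.9 in replicate 1 and 57.5 in replicate 2, and over ncRNA-only peaks 73.3 and 48.8. Replicate 1 had the higher value at 104 of 120 shared (86.7%) and 47 of 51 ncRNA-only peaks (92.2%) with both values. Over all conservative peaks with both values the share was 92.2%. Replicate 1's own thresholded list held 111 of the shared peaks (87.4%) and 46 of the ncRNA-only peaks (85.2%), against 90.8% of all conservative peaks. The list of replicate 2, at 3200 peaks against 6061, held 84 shared peaks (66.1%, 57.2 to 74.3) and 26 ncRNA-only peaks (48.1%, 34.3 to 62.2). It held 67.8% of all conservative peaks (66.4 to 69.1), inside the interval of shared peaks and above that of ncRNA-only peaks. Most conservative peaks are coding-only (3411 of 4488), and the share was not taken for peaks near neither kind of start. A lower share is thus not claimed as particular to ncRNA-only peaks. Applied to each replicate's own list, the rule gave 265 peaks in replicate 1, with 153 shared and 112 ncRNA-only, and 111 in replicate 2, with 83 and 28. In neither replicate list were 20 of the 181 peaks found (11.0%), 13 shared (10.2%) and 7 ncRNA-only (13.0%). This count was not made over all conservative peaks, so it is not read as a trait of the members.

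**Figure D4:**
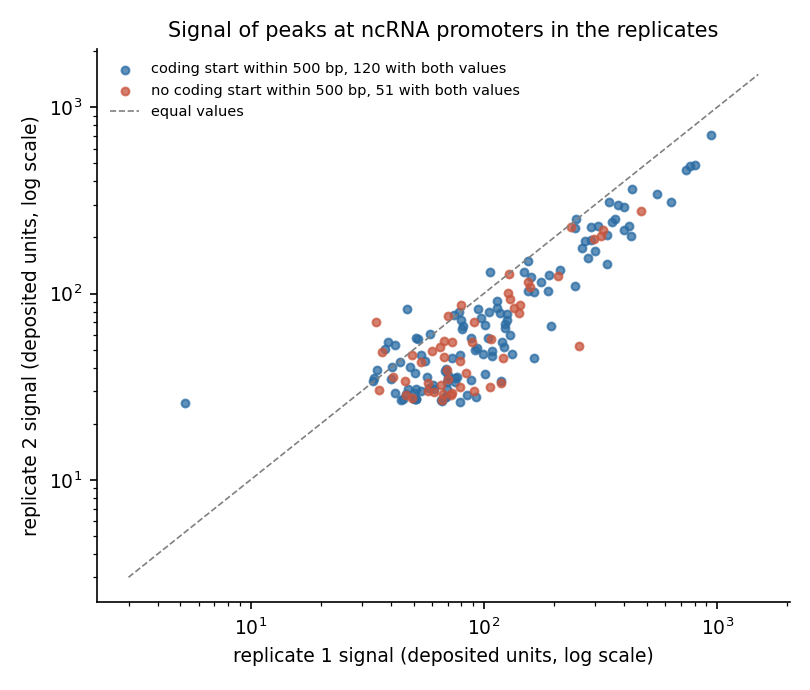
Signal in replicate 2 (vertical axis) against replicate 1 (horizontal axis), both in deposited units on log scales, for the 171 peaks with a value in both. The dashed line marks equal values, and 151 points lie below it, with the higher value in replicate 1.

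The strongest shared peaks lay at the promoters of Daxx, Hsp110, lost and CtsF. The peak at the starts of lncRNA:CR45463 and Daxx, which encodes a histone chaperone, ranked 5 of 4488 with a signal of 1641, and 936 and 709.6 in replicates 1 and 2. At asRNA:CR42871 and Hsp110, a molecular chaperone, the signal was 1292, with 801 and 492 in the replicates. At lncRNA:CR45187 and lost it was 1243, with 768 and 482. At asRNA:CR44019 and CtsF, a lysosomal protease, it was 1198, with 738 and 461. In all 4 the summit was 42 to 54 bp from the coding TSS and 47 to 141 bp from the ncRNA TSS, and replicate 1 was higher than replicate 2.

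The next 6 shared peaks had signals of 651 to 946. The peak of lncRNA:CR45324 and TER94, the fly p97 ATPase, had 946, and that of asRNA:CR44416 and OstDelta, a subunit of the enzyme that attaches N-glycans, had 895. The peak of lncRNA:CR32582 and the clathrin heavy chain gene Chc had 796, with the closest replicate values of this set, 431 and 366. Next came asRNA:CR44982 with Atxn7 (689), a component of the SAGA coactivator, lncRNA:CR44759 with Rtf1 (672), a factor of transcription elongation, and asRNA:CR44368 with ReepB (651), a protein of the endoplasmic reticulum. Their summits were 11 to 67 bp from the coding start and 61 to 245 bp from the ncRNA start.

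The ncRNA-only peaks were led by asRNA:CR45009 on the X chromosome, with a signal of 742 and replicate values of 469.9 and 279. Its summit was 12 bp upstream of the RNA's start and 3012 bp from the nearest coding TSS, that of stnB, a gene of synaptic vesicle recycling. The second was lncRNA:CR43650, the precursor of mir-8, with 537 (325 and 220.3 in the replicates) at chr2R:16830402-16830696 of dm6. Then came lncRNA:CR44127 with 526 (317 and 202) at chr2R:5967687-5967942, 948 bp from the TSS of CG7881, and asRNA:CR45806 with 500.4 (297 and 195), 1513 bp from that of CG7049. At lncRNA:CR44805 (chr2R:23839903-23840211) the signal was 476, with 235 and 227, and a snoRNA start also lay within 500 bp of the summit. These 5 are the ncRNA-only peaks among the 500 strongest of the list.

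The 10 peaks that followed had signals of 202 to 336. They lay at lncRNA:CR43838 (336), lncRNA:CR45997 within mbl (304), a gene for a splicing regulator, sncRNA:CR43701 within stet (272), lncRNA:CR44749 within HmgD (252), asRNA:CR46453 (251), RNaseMRP:RNA (231), asRNA:CR45891 (229), lncRNA:CR43604 within dachs (221), asRNA:CR45131 (215) and lncRNA:CR45297 (202). The summits at RNaseMRP:RNA and asRNA:CR45131 also lay within coding genes, CG10365 and M7BP. The replicates differed most at lncRNA:CR45997, with 256 in replicate 1 and 52.6 in replicate 2. At lncRNA:CR44749 they were almost equal, at 129 and 127. RNaseMRP:RNA is the RNA component of an endonuclease that, in yeast and mammals, processes ribosomal RNA precursors. Its peak had 143 and 87.0 in the replicates, and its summit lay 48 bp inside the gene.

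At the other end, the weakest shared peaks were the second peak of Uhg2 (6.34), the second of lncRNA:CR44209 (7.92) and the second of asRNA:CR45135 at lola (25.6). The weakest ncRNA-only peaks were one of the 3 at lncRNA:CR43650 (15.8), lncRNA:CR44619 (40.1) and lncRNA:CR44440 (62.9). None of the 6 had a covering peak in the ranked list of replicate 2. Of these, all but lncRNA:CR44619 and lncRNA:CR44440 sit beside a stronger peak at the same gene. Over all members there were 5 pairs of neighbouring peaks that overlapped, so the 181 peaks are not fully independent regions.

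At 9 ncRNA genes there were 2 or more peaks. asRNA:CR42254, which starts 6 bp from a start of BEAF-32 itself, had 3 peaks, with signals of 619.9, 279.6 and 86.8. Their replicate values were 345 and 310.4, 149 and 130.0, and 46.9 and 82.8, so the weakest was higher in replicate 2. lncRNA:CR43650 also had 3, and Uhg2, asRNA:CR45135 at lola, asRNA:CR45270 at grh, asRNA:CR45969 at Arf1, lncRNA:CR32368, lncRNA:CR44209 and lncRNA:CR44867 had 2 each. lola and grh encode transcription factors, and Arf1 a GTPase of Golgi transport. The summit nearest to both kinds of start was at Myc, the growth regulator, where lncRNA:CR44999 and Myc share an annotated start 1 bp from it. Its signal was 152, with 93.9 and 51.1 in the replicates.

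Precursors of small RNAs were described separately, a division made after the member list had been seen. Of 37 ncRNA genes whose span holds a microRNA hairpin, 9 had a conservative peak (24.3%, 11.8 to 41.2), against 5.98% of all ncRNA genes without microRNA entries. The strongest was lncRNA:CR43650, whose mir-8 is related to the vertebrate miR-200 family. It was followed by lncRNA:CR43651 (mir-14; signal 154, with 121 and 44.9 in the replicates), lncRNA:CR43314 (mir-bft; 144, with 88.6 and 54.9) and lncRNA:CR31044 (mir-279 and mir-996; 130.2, with 64.9 and 51.8). The remaining hosts were lncRNA:CR42651 (mir-10; 104), lncRNA:CR43626 (mir-282; 97.3), lncRNA:CR44206 (mir-184; 94.3), lncRNA:iab8 (mir-iab-8; 84.7) and lncRNA:CR43459 (mir-277 and mir-34; 69.9). All 9 are ncRNA-only. The strongest summit at 7 of them was within 60 bp of an annotated RNA start. That limit is the distance at lncRNA:CR44206 and was chosen after the values were seen. A share at this limit was not taken for other ncRNA-only peaks. Over all ncRNA-only peaks with a transcript, the median distance was 118 bp.

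Other hosts had no conservative peak. At lncRNA:CR43334, precursor of the growth-promoting microRNA bantam, the unthresholded ranked list of the series gave 152, with 129.8 in replicate 1 and 23.0 in replicate 2, and the second, less strict IDR list of the series held a peak there. At lncRNA:let7C, precursor of let-7, which acts late in development, the highest ranked signal was 8.22. Several annotated starts per gene raise the chance of a peak near one of them, and the part of this in the hosts' share was not tested.

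Of 10 lncRNA genes that hold snoRNAs, 4 had a peak (40.0%, 12.2 to 73.8), against 5.98% of all ncRNA genes without microRNA entries and 21.4% of those next to a coding start, where 3 of the 4 lie. These were Uhg2 (539, with 309 and 229 in the replicates), Uhg8 (201, with 113 and 91.7), Uhg1 (162, with 107 and 57.3) and Uhg5 (113, with 74.9 and 35.2). The Uhg genes carry snoRNAs in their introns. Uhg2, Uhg5 and Uhg8 have a coding TSS within 500 bp and Uhg1 does not, its nearest being that of rdgBbeta at 694 bp. Uhg4 had a peak in the list of replicate 1 alone. Uhg3 and Uhg7 had none in any thresholded list, with highest ranked signals of 92.9 and 47.6.

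Of 27 characterised ncRNA genes listed by name, 7 had a conservative peak, 4 of them the Uhg hosts above, against 5.98% of all ncRNA genes without microRNA entries. roX1 and roX2, which guide dosage compensation to the male X chromosome, were absent from the conservative list. roX2 had a peak in the list of replicate 1, with 67.4 there and 7.35 in replicate 2, and roX1 a highest ranked signal of 16.0. No ranked series peak lay within 500 bp of a start of flam, the precursor of piRNAs that silence transposons in the ovary's somatic cells, of bxd or of cherub. lncRNA:Hsromega, the heat-inducible RNA of the omega speckles, was in no thresholded list either, although the ranked list of the series gave a signal of 406 there, with 236 and 159.7 in the replicates. In the bithorax complex, lncRNA:iab8 had 84.7, with 49.3 and 27.4 in the replicates. The conservative list had no peak at either gene for 7SL RNA, the RNA of the signal recognition particle, nor at RNaseP:RNA. The hairpin RNA gene hpRNA:CR18854, a source of endogenous siRNAs, had a shared peak of 191.9, with 129.7 and 60.3.

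Of the 19 peaks assigned to a microRNA entry with no other ncRNA start in reach, 14 were shared. The strongest were at mir-9370 near FucT6 (483), mir-3645 near Mlc-c (462) and mir-995 near Cdk2 (447), with the summit 32, 49 and 62 bp from the coding TSS and 291, 172 and 362 bp from the microRNA's end. Among the 5 ncRNA-only peaks of this kind the strongest was at mir-34, with 120.2 and replicate values of 90.4 and 29.9. Hairpin ends are not promoters, so these peaks meet the rule by annotation alone.

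The words shown with the sequences were counted in the 101 bp around every summit. A BEAF-32 word was present at 52 of 127 shared peaks (40.9%, 32.3 to 50.02) and at 10 of 54 ncRNA-only peaks (18.5%, 9.25 to 31.4). In the replicates' own lists the shares at ncRNA-only peaks were 10.7% in replicate 1 and 32.1% in replicate 2. In the conservative list the word was present at 44.9% of coding-only peaks (43.2 to 46.5), 16.9% of all coding starts and 6.46% of all ncRNA transcript starts in windows of the same length. At peaks near neither kind of start the share was 12.9% (10.8 to 15.3), inside the interval of ncRNA-only peaks. Where the nearest coding TSS was beyond 1000 bp, 5 of 44 peaks had one (11.4%, 3.79 to 24.6). The DREF word was at 18.1% of shared, 5.56% of ncRNA-only and 18.4% of coding-only peaks, against 0.775% of ncRNA starts and 4.48% of coding starts. It was at 3.35% of peaks near neither kind of start. M1BP words were at 3.94% of shared and 5.28% of coding-only peaks. They were at 0 of 54 ncRNA-only peaks, with an exact interval up to 6.6%. The share was 0.369% at ncRNA starts and 4.67% at coding starts.

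Signal and the BEAF-32 word went together in each class. Shared peaks with the word had a median signal of 289.8 and those without it 108. For ncRNA-only peaks the medians were 188 and 116, and for coding-only peaks 248 and 117. Since ncRNA-only peaks are weaker in the median than coding-only peaks, the share was also read within the stronger 50% of the list. There the word was at 60.0% of shared (47.1 to 72.0), 33.3% of ncRNA-only (14.6 to 57.0) and 63.3% of coding-only peaks (61.1 to 65.6). In the weaker 50% the word was at 13 of 62 shared (21.0%, 11.7 to 33.2) and 3 of 33 ncRNA-only peaks (9.09%, 1.92 to 24.3). The share at coding-only peaks there was 24.0% (21.9 to 26.1). The interval of ncRNA-only peaks in the weaker 50% includes the shares of both other classes.

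Words of the Runx family, the partners of Bgb, were uncommon. They were at 9 of 127 shared peaks (7.09%, 3.29 to 13.0), 6 of 54 ncRNA-only peaks (11.1%, 4.19 to 22.6) and 4.93% of coding-only peaks (4.22 to 5.71), and at 4.61% of all ncRNA starts and 4.97% of all coding starts. The intervals of both member classes include the share at all ncRNA starts. The 6 ncRNA-only peaks were at Uhg1 (162), lncRNA:CR43651 (154), asRNA:CR44375 (114), lncRNA:CR45643 (104), mir-4978 (96.5) and lncRNA:CR44417 (93.3), named after their values were seen. All 6 are below the strongest 15 of their class, and their median of 109 was close to the 126 of ncRNA-only peaks without the word. At shared peaks the medians were 198 with the word and 145 without.

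Core promoter words were uncommon at the summits. TATAAA was at 5.51% of shared (2.24 to 11.0) and 9.26% of ncRNA-only peaks (3.08 to 20.3). It was at 8.62% of coding-only peaks (7.70 to 9.61), 13.9% of all ncRNA starts (12.6 to 15.2) and 15.5% of all coding starts. The interval of shared peaks lies below that of ncRNA starts, and that of coding-only peaks lies below the share at coding starts. A lower share at summits than at starts was thus not limited to shared peaks. Windows at peaks are centred on summits and windows at starts on the annotated start. The part of this in these differences was not tested. GAGAGAG, searched for the GAGA factor, was at 3.15% and 3.70% of the members against 1.44% of ncRNA starts, which both member intervals include. The initiator word TCAGT, read on the strand of transcription within 10 bp of the start, was at 3 of the 47 separate ncRNA starts nearest to ncRNA-only summits (6.38%, 1.34 to 17.5) and at 5.06% of all ncRNA starts. The 3 were lncRNA:CR31044, lncRNA:CR42651 and asRNA:CR44375. The share was 10.9% at coding-only peaks and 13.1% at all coding starts. GTTCGANNC, a form of the B box of tRNA-type promoters searched for after the sequences were seen, was at 2 of 54 ncRNA-only peaks (lncRNA:CR43604 and mir-314), with an interval of 0.452% to 12.7%, and at 2 of 127 shared peaks. It was at 1.79% of coding-only peaks, 8.04% of peaks near neither kind of start and 0.738% of ncRNA starts. GC content was similar, with medians of 44.6% at shared, 46.0% at ncRNA-only and 44.6% at coding-only summits, and 41.6% at all ncRNA starts.

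**Figure D5:**
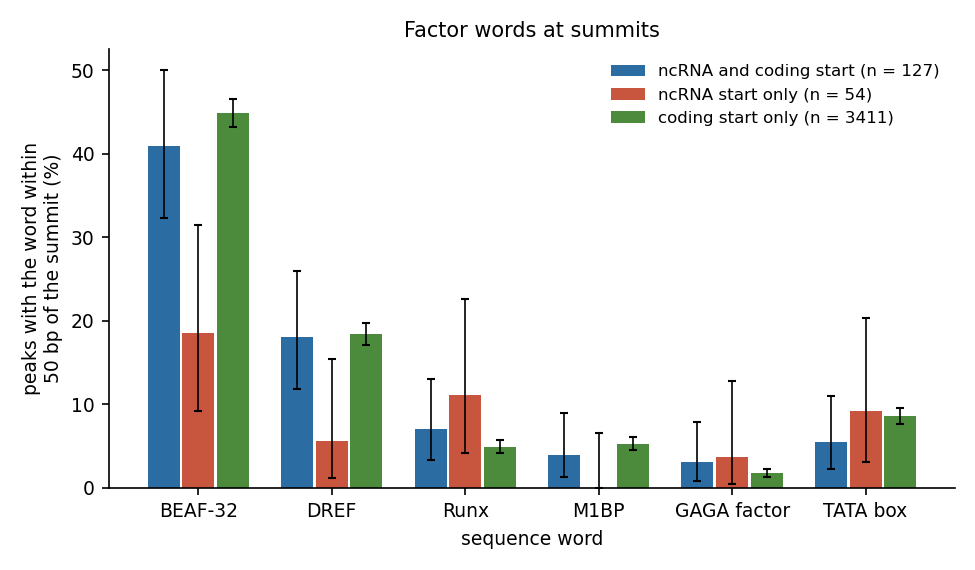
Percentage of peaks with each factor's word within 50 bp of the summit, for shared, ncRNA-only and coding-only peaks, with exact 95% intervals as lines. The BEAF-32 word is at 40.9%, 18.5% and 44.9% of peaks, and the Runx word at 7.09%, 11.1% and 4.93%.

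The members were spread over all major arms, with a larger share on 2R than that of all conservative peaks or of ncRNA genes without microRNA entries. Arm 2R held 56 of the 181 peaks (30.9%, 24.3 to 38.2), 22.2% of all conservative peaks and 15.7% of ncRNA genes without microRNA entries. The other arms held 36 (2L), 31 (3L), 28 (3R), 28 (X) and 2 (chromosome 4) of the members. For 2L the shares were 19.9% of members, 18.3% of all peaks and 25.2% of ncRNA genes without microRNA entries. Members are peaks, microRNA entries included, so their shares and those of genes count unlike sets.

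The distance of 500 bp divides a continuum. The members farthest inside were asRNA:CR45549 at 499 bp (signal 116), asRNA:CR45927 at 499 bp (144) and lncRNA:CR32368 at 498 bp (62.9). The peaks nearest outside were at lncRNA:CR33942 at 515 bp (149), lncRNA:CR44078 at 522 bp (510.0) and lncRNA:CR44994 at 524 bp (335). All 6 have a coding TSS within 181 bp.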

How the data were processed

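ChIP-seq peak lists from 2 biological replicates of Bgb-eGFP embryos were analysed: for the series a conservative list that passed an irreproducible discovery rate (IDR) comparison, a second IDR-thresholded list and a ranked list, and for each replicate a thresholded and a ranked list. The deposited lists are on dm6, per the labels. The signal of each peak is the authors' deposited value, with no scaling, aligner or peak caller named in the sources used here. A score per peak, also deposited by the authors, was used for one observation. The depth of the libraries is unknown, so intervals cover the counting of peaks and genes alone. In the ranked series list, 8 per-replicate columns carry no names and were not used.

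Summits were set against every transcript start in Ensembl release 115 (BDGP6), and sequences were read from the RefSeq assembly, past whose arm ends no peak reached. No test was made, because there is 1 group: classes are described by counts, medians and exact 95% intervals (SciPy 1.17.1), and samples are set side by side. Replicate values were not rescaled. Intervals that do not overlap are described as such and not as a test. A peak was in another list when at least 1 bp overlapped. Class assignment, overlap and word searches were checked on simulated data. Tables were made with pandas 2.3.3 and numpy 2.4.6 in Python 3.11.15, and figures with matplotlib 3.10.9.

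Genes were named by a rule: a list of characterised ncRNAs, the 15 strongest ncRNA-only and 10 strongest shared peaks, genes with 2 or more peaks, the 3 members on each side of the distance limit and the 3 weakest of each class. The members and lists were chosen with earlier results of these data known. Several items were added after the members or the annotation had been seen. Among them were the division into hosts of small RNAs, the 60 bp limit used for microRNA hosts and the initiator and B box words. The run of bases common to a pair of windows was another. So were the BEAF-32 shares of the weaker 50% of peaks and of stronger coding-only peaks, and the alternative without microRNA entries. Alternatives changed the peak list, replicate, distance, start definition, RNA length, word window and overlap.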

Additional observations from a re-analysis of the deposited data

How the results depend on the processing

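Across 103 values of 13 results under alternative settings, 59 stayed within the stated bounds (1.5 times for counts, the exact interval for shares, the SD between replicates for ratios) and 44 moved. Counts depend on the list and the distance. The number of members was 86 in the stronger 50% of peaks, 118 within 250 bp and 316 within 1000 bp. Shared peaks then numbered 65, 74 and 253, and ncRNA-only peaks were 21 in the stronger 50% and 101 in the second list. With the list of a single replicate, members numbered 111 to 265, shared peaks 83 to 153 and ncRNA-only peaks 28 to 112. The share of members with a coding TSS was 61.5% in the second list, 62.7% within 250 bp, 80.1% within 1000 bp and 57.7% to 74.8% with a single replicate. The share of ncRNA genes with a summit was 8.81% in the second list, 2.97% in the stronger 50%, 3.93% within 250 bp, 10.9% within 1000 bp and 3.69% to 8.81% with a single replicate. For ncRNA genes far from coding starts it was 4.59%, 0.910%, 1.80%, 3.39% and 1.27% to 4.80% in that order. For those next to one it was 29.7% in the second list, 13.1% in the stronger 50%, 29.6% within 1000 bp and 15.6% to 28.6% with a single replicate, so it exceeded the share of those farther away under every alternative run. The signal ratio of ncRNA-only to coding-only peaks stayed under 1 under every alternative run, at 0.700 within 1000 bp and 0.756 to 0.919 with a single replicate. That of shared peaks did not keep a side of 1: 0.895 in the second list, 1.03 in the stronger 50%, 1.06 within 250 bp, 0.884 with only the 5' end of each gene and 0.947 to 1.00 with a single replicate. The BEAF-32 word was at 33.3% of ncRNA-only and 60.0% of shared peaks in the stronger 50%, and with a single replicate at 10.7% to 32.1% and 34.6% to 49.4%. With an overlap of at least 50% of the peak, replicate 1's list held 80.7% of members in place of 86.7%. Leaving out microRNA entries, an alternative chosen after seeing the annotation, moved no result past these bounds. The cause of these movements was not tested. No paired analysis was possible because there is only 1 group.

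Limits are that there are 2 replicates, unknown depth and scaling, control libraries that were not analysed here, and start sites taken from annotation alone, without embryonic RNA data. A summit within 500 bp of 2 starts cannot be assigned to one of them, and the motif words are short.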

Other observations

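Some strong peaks at ncRNA starts are ranked but not listed. The conservative list holds no score below 830, yet 148 peaks of the ranked series list reach that score and are not in it. Of these, 7 have a summit within 500 bp of a ncRNA transcript start. The strongest are a pair at lncRNA:Hsromega, at chr3R:21295756-21295982 with a signal of 406 (236 and 159.7 in replicates 1 and 2) and at chr3R:21296433-21296808 with 189 (125 and 62.3). The first exceeds 87.7% of the conservative peaks. The other 5 are at lncRNA:CR44556 (124), lncRNA:CR45279 (a pair with 101.3 and 25.5), lncRNA:CR45221 (97.5) and Uhg3 (92.9). lncRNA:CR44556, lncRNA:CR45279 and lncRNA:CR45221 also have a coding TSS within 500 bp. Why these peaks are missing from the list is not given in the sources used here and was not tested.

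Summits of the ranked list lay near many more ncRNA starts. In the ranked series list, which has no threshold, 348 of 473 ncRNA genes next to a coding start (73.6%, exact 95% interval 69.4 to 77.5) had a summit within 500 bp, with a median highest signal of 44.7. Of 2075 farther away on arms with a coding start, 1069 did (51.5%, 49.3 to 53.7), with a median of 24.3. Ranked lists include noise, so these shares are not counts of bound genes. No share of coding genes is given for this list, so they cannot be set against its general density.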
